A study of Mus musculus with 2 samples.

Results

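The 28 genes described here encode enzymes of cholesterol synthesis and the proteins that sense, move and export sterols, and they were chosen by name from a gene table of 23183 rows. All 28 symbols had a row, and all 28 had a mean of at least 1 FPKM over the libraries, as did 11841 genes in all. FPKM is the number of sequenced fragments scaled by transcript length and library total. Poly(A)-selected RNA of neonatal mouse epidermis, the outer layer of skin, was sequenced in 2 libraries. The tested library came from C57BL/6 mice homozygous for the Foxn1 allele L19M, here called L19M, and the other from wild-type C57BL/6 mice, here called WT. Foxn1 is a forkhead-type transcription factor needed for hair and for the thymus, and the study asked how keratinocytes differ between these genotypes. The sources used here give neither the number of pups pooled nor their age or sex. Since each genotype has 1 library, the genotypes are compared without a test or a p-value. Intervals in brackets are 95% intervals for counting error only, and the spread between animals is in none of them.

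Cholesterol is made from acetyl-CoA in a chain of enzymes. The early, mevalonate steps build isoprenoid units and join them to farnesyl diphosphate, which also feeds protein prenylation, dolichol and ubiquinone. Squalene synthase then commits the carbon to sterols, and the later steps close and trim the sterol rings. When sterol in the endoplasmic reticulum is low, Scap carries the transcription factor SREBP-2 to the Golgi for cleavage, and genes of the whole chain are transcribed. When sterol is plentiful, Insig proteins hold Scap back, and oxysterols activate the LXR receptors, which raise the exporters. In epidermis cholesterol is, with ceramides and free fatty acids, a main lipid of the permeability barrier, and keratinocytes make much of it themselves.

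Both libraries were rich in keratinocyte RNA, with Krt14, a basal keratin, at 3850 FPKM in L19M and 3408 FPKM in WT, and Krt10, a suprabasal keratin, at 8193 FPKM in L19M and 9337 FPKM in WT. Depth was estimated from the steps of low FPKM values at 19216438 fragments in L19M and 14161150 in WT. Foxn1 itself had 5.44 FPKM in L19M and 3.74 FPKM in WT, and an RNA level is no check of an allele that is named for a changed residue. The libraries also differed in RNA of the sex chromosomes. Eif2s3y, a Y-linked gene, had 0.200 FPKM in L19M, from 6 estimated fragments, and 47.4 FPKM in WT, and Ddx3y, also Y-linked, had 0.0117 FPKM in L19M, from 1 fragment, and 18.04 FPKM in WT. The Y-linked genes Kdm5d (0.00989 FPKM in L19M, 2.47 FPKM in WT) and Uty (0.0104 FPKM in L19M, 3.92 FPKM in WT) lay the same way. Xist, the RNA that silences an X chromosome in females, had 4.50 FPKM in L19M and 1.89 FPKM in WT. RNA of males was thus present in WT and close to absent in L19M. Since Xist was also above 0 in WT, from 322 estimated fragments, WT may hold RNA of both sexes. Genotype and the sex makeup of the libraries cannot be told apart for any value that follows. Among other lists, 15 of 15 measured hair shaft and inner root sheath genes were at least 2-fold lower in L19M, and 9 of 10 genes of stressed keratinocytes were at least 2-fold higher. In such whole-tissue RNA, fewer cells of a type and less RNA per cell cannot be told apart.

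4 promoters are shown because their genes mark the range of the results: Msmo1 had the lowest and Mvd the highest ratio of L19M over WT, Insig1 is a sensor gene that SREBP-2 switches on, and Hmgcs1 is an abundant gene of the first steps whose promoter is a classic site of sterol control. Each is the 250 bases before the gene start, 5′ to 3′ on the gene's strand, from RefSeq on GRCm38.p6, the assembly also called mm10. Capitals mark the CCAAT box (CCAAT, bound by NF-Y, which works with SREBP-2 at many sterol genes), the E-box CACGTG and the short sterol element CACNCCAC, on either strand. The windows are chr8:64733579-64733828 on the minus strand for Msmo1, chr8:122443423-122443672 on the minus strand for Mvd, chr5:28071162-28071411 on the plus strand for Insig1 and chr13:119690101-119690350 on the plus strand for Hmgcs1.
Msmo1: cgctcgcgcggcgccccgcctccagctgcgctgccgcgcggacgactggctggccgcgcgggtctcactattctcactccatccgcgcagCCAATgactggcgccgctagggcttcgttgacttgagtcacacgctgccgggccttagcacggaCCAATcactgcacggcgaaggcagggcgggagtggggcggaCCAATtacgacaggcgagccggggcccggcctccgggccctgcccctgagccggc
Mvd: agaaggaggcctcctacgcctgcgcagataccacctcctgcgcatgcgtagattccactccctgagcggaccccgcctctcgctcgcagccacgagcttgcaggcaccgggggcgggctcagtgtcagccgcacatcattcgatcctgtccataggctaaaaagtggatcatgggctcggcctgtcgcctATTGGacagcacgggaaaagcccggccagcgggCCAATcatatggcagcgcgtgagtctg
Insig1: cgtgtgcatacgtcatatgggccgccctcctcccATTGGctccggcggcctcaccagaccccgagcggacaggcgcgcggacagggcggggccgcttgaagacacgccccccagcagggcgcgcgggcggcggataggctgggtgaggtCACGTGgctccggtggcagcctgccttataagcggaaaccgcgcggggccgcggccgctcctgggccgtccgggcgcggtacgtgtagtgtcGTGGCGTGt
Hmgcs1: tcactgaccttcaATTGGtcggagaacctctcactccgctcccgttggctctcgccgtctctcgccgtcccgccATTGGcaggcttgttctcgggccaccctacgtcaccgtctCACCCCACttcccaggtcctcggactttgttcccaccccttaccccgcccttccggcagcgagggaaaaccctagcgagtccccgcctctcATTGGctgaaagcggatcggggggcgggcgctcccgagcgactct

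The Msmo1 window held 3 CCAAT boxes, whose first bases lay 160, 96 and 55 bases before the start, all on the gene's strand. Mvd held 2 CCAAT boxes, at 60 bases before the start on the other strand and at 27 bases on the gene's strand. Both genes at the ends of the range thus had CCAAT boxes near the start, and neither had a short sterol element or an E-box in its window. Insig1 had 1 CCAAT box, an E-box at 101 bases and a short sterol element at 9 bases before the start, while Hmgcs1 had a short sterol element at 136 bases and 3 CCAAT boxes before the start. RefSeq windows of 250 bases before to 50 after the start were matched for 22 of the 28 genes. A CCAAT box was in 19 of these 22, against 41.1% of 27025 genes in the same table. The exceptions were Acat2, Scap and Abca1. The short sterol element was in 3 of 22 (Acat2, Hmgcs1 and Insig1), against 7.12% of all genes, and its longer form, with AT before it, in 0 of 22, against 0.27%. The E-box was in 6 of 22 (Abca1, Dhcr7, Hsd17b7, Insig1, Sc5d and Scap), against 8.09%. No 2 matches in the members' windows overlapped, and a match of letters is not a site of binding. Fdps, Fdft1, Sqle, Stard4, Abcg1 and Npc1 were not matched.

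No sterol gene was 2-fold apart between the libraries. On the scale log2((FPKM in L19M + 1)/(FPKM in WT + 1)), called the log2 ratio here, 0 of 28 passed 2-fold upward in L19M, against 0.532% of all measured genes, and 0 of 28 passed it downward, against 1.71%. At 1.5-fold, 0 of 28 were higher, against 1.99% of all measured genes, and 1 of 28 was lower, Msmo1, against 4.07%. The median log2 ratio of the 28 genes was 0.053, beside 0.0049 for all measured genes, whose quartiles were -0.17 and 0.16. The summed FPKM of the 28 genes was 969 in L19M and 978 in WT, and that of the 19 enzymes 804 in L19M and 810 in WT.

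Within that even total the mevalonate genes had a median log2 ratio above 0, and the squalene and ring genes, a mixed group, had 1 below 0. All 7 mevalonate genes had a log2 ratio above 0, where 50.8% of all measured genes did, with intervals of the FPKM ratio that held 1 for 2 of them, and 8 of 12 genes of the squalene and sterol ring steps were below 0, where 49.2% did. The median log2 ratio was 0.12 for the mevalonate steps and -0.16 for the squalene and ring steps, both inside the quartiles of all measured genes. Of the 12 squalene and ring genes, 4 were above 0, and the intervals of 2, Lss and Sc5d, lay above 1. Without Msmo1 the median of the other squalene and ring genes was -0.03 and the ratio of their summed FPKM 0.911. Summed FPKM of the mevalonate genes was 517 in L19M and 460.3 in WT, a ratio of 1.12, and that of the squalene and ring genes was 287 in L19M and 350 in WT, a ratio of 0.821. Mevalonate RNA over ring-step RNA, a quotient formed after the values were seen, was 1.801 in L19M and 1.32 in WT. For the FPKM ratio of single genes, the counting interval lay above 1 for 9 of the 28 genes (32.1%) and below 1 for 8 (28.6%). The same held for 23.1% and 24.4% of all measured genes, a mix that also holds shallower genes with wider intervals.

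**Figure D1:**
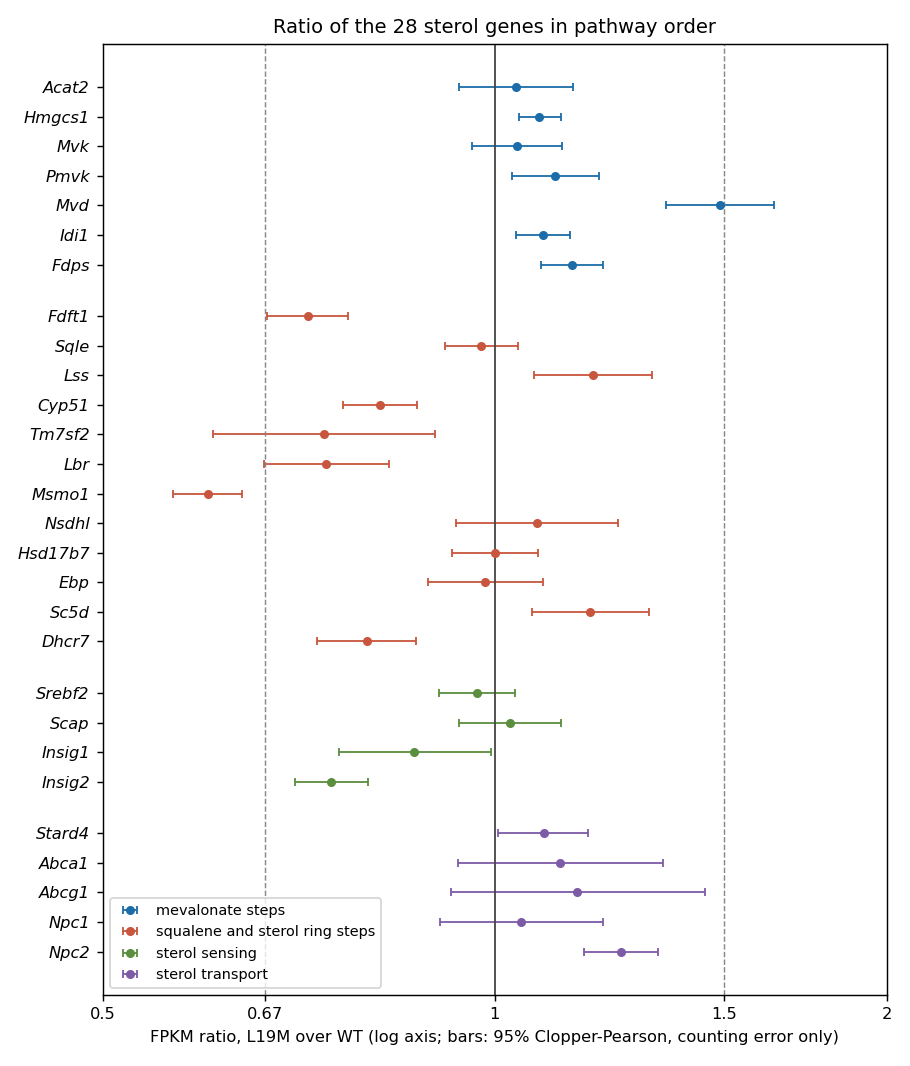
FPKM ratio of L19M over WT (log axis) for the 28 genes in pathway order, coloured by role; points are ratios, bars 95% Clopper-Pearson intervals for counting error, dashed lines 1.5-fold. All 7 mevalonate genes lie right of 1, Msmo1 alone lies beyond 1.5-fold on the left, and Mvd stops just inside it at 1.49.

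Of the mevalonate genes, Mvd stood apart from the other 6. Mvd encodes the decarboxylase that makes isopentenyl diphosphate, the building block of all isoprenoids, and lies on the minus strand of chromosome 8 at 122433596 to 122443422. It had 41.7 FPKM in L19M (39.5 to 44.0) and 28.03 FPKM in WT (25.9 to 30.3), so the intervals were apart. Its ratio was 1.49 (1.35 to 1.64), and 2.24% of measured genes had a larger log2 ratio than its 0.56. The kinases before it in the chain were closer to equality. Mvk, mevalonate kinase, had 46.7 FPKM in L19M and 44.9 FPKM in WT, a ratio of 1.04 (0.960 to 1.13), and Pmvk, phosphomevalonate kinase, had 65.5 FPKM in L19M and 58.9 FPKM in WT, a ratio of 1.11 (1.03 to 1.20).

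Fdps, farnesyl diphosphate synthase, was the most abundant of the 28 genes in both libraries. It had 146 FPKM in L19M and 127 FPKM in WT, a ratio of 1.15 (1.08 to 1.21). Hmgcs1, the synthase of HMG-CoA, had 107 FPKM in L19M and 98.6 FPKM in WT, a ratio of 1.08 (1.04 to 1.12). Idi1, the isomerase of isopentenyl diphosphate, had 84.2 FPKM in L19M and 77.3 FPKM in WT, a ratio of 1.09 (1.04 to 1.14). These 3 genes, with 2115 to 6903 estimated fragments per library, differed by more than counting error, with ratios of at most 1.15. Acat2, the cytosolic thiolase that opens the chain, had 26.1 FPKM in L19M and 25.1 FPKM in WT, and its interval of 0.939 to 1.15 held 1, as did that of Mvk.

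**Figure D2:**
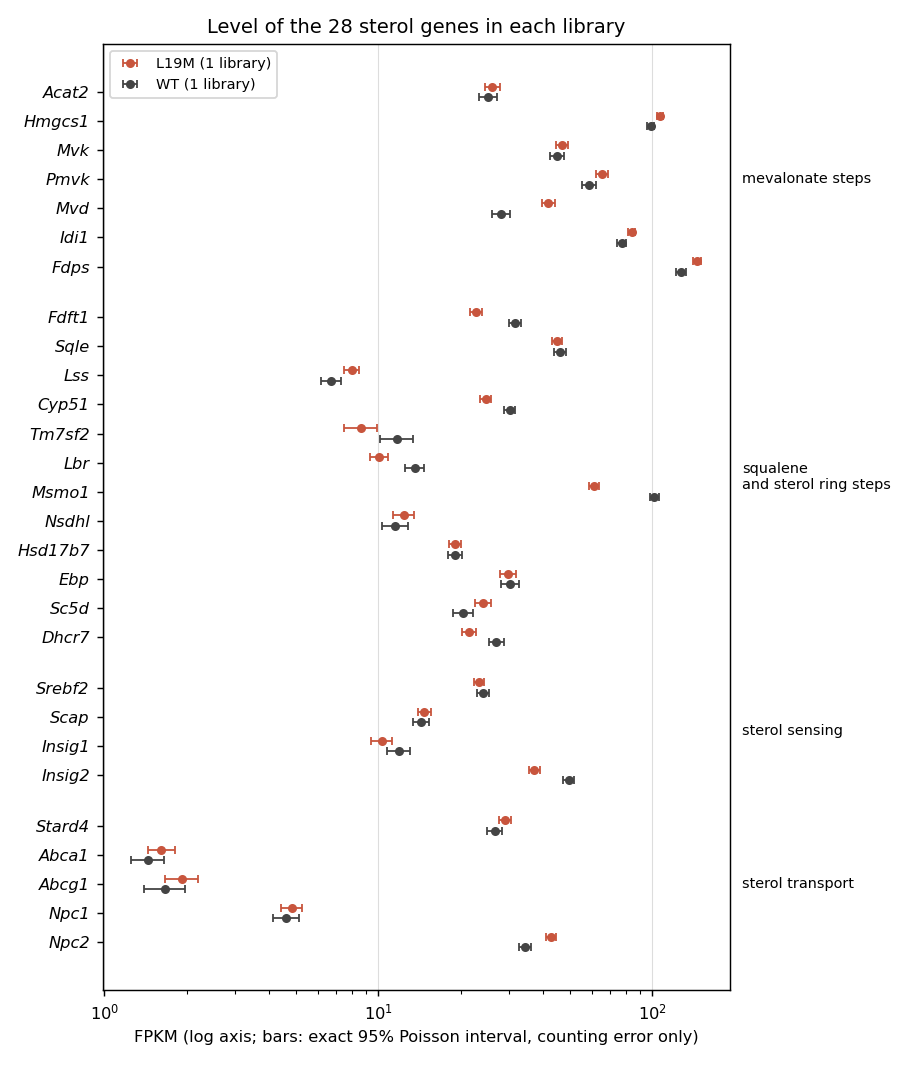
FPKM (log axis) of the 28 genes in L19M and WT, 1 library each, in pathway order; bars are exact 95% Poisson intervals for counting error. Levels run from the exporters Abca1 and Abcg1, under 2 FPKM in both libraries, to Fdps at 146 FPKM in L19M and 127 FPKM in WT.

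Msmo1 was the gene furthest from equality. It encodes the methylsterol monooxygenase that starts the removal of the paired methyl groups from the sterol ring, and lies on the minus strand of chromosome 8 at 64718145 to 64733578. It had 61.3 FPKM in L19M (58.5 to 64.1) and 102 FPKM in WT (97.7 to 106.0), from 1899 and 2330 estimated fragments in L19M and WT. The ratio was 0.602 (0.566 to 0.640), the log2 ratio was -0.72, and 2.85% of measured genes had a lower one. It was the most abundant ring-step gene in both libraries, below Pmvk in L19M and level with Hmgcs1 in WT. Its partners in the same demethylation did not share this. Nsdhl, the decarboxylating dehydrogenase of that step, had 12.4 FPKM in L19M and 11.5 FPKM in WT, a ratio of 1.08 (0.934 to 1.24). Hsd17b7, the reductase that ends the step, had 19.1 FPKM in L19M and 19.1 FPKM in WT, a ratio of 1.0 (0.927 to 1.08). Of the difference of -62.6 FPKM in the sum over the squalene and ring genes, L19M minus WT, Msmo1 made up -40.5 FPKM.

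5 other enzymes after farnesyl diphosphate were lower in L19M by more than counting error. Fdft1, squalene synthase, spans 63145151 to 63179578 on the minus strand of chromosome 14. It had 22.7 FPKM in L19M and 31.6 FPKM in WT, a ratio of 0.719 (0.669 to 0.772). Its last 773 bases overlap the end of Ctsb, a cathepsin gene on the other strand, which had 42.8 FPKM in L19M and 59.3 FPKM in WT, a ratio of 0.722 (0.690 to 0.755). No source used here says whether fragments were counted by strand, so the values of Fdft1 and Ctsb may share fragments. Cyp51, the cytochrome P450 that removes a methyl group from lanosterol, had 24.6 FPKM in L19M and 30.2 FPKM in WT, a ratio of 0.817 (0.765 to 0.871). Dhcr7, which makes cholesterol from the sterol that skin also turns into vitamin D, had 21.5 FPKM in L19M and 26.9 FPKM in WT, a ratio of 0.797 (0.731 to 0.870).

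Tm7sf2 and Lbr encode enzymes that reduce the same ring double bond, and Lbr also tethers chromatin to the nuclear lamina. Tm7sf2 had 8.62 FPKM in L19M and 11.7 FPKM in WT, a ratio of 0.739 (0.608 to 0.899) from 210 fragments in each library. Lbr had 10.1 FPKM in L19M and 13.6 FPKM in WT, a ratio of 0.742 (0.665 to 0.829). The level of Lbr over that of Tm7sf2 was 1.17 in L19M and 1.16 in WT. Both were lower in L19M by nearly the same factor.

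The other ring-step genes were level or higher in L19M. Lss, which folds squalene epoxide into lanosterol, had 7.98 FPKM in L19M and 6.71 FPKM in WT, a ratio of 1.19 (1.07 to 1.32). Sc5d, a late desaturase, had 24.1 FPKM in L19M and 20.4 FPKM in WT, a ratio of 1.18 (1.07 to 1.31). Sqle, squalene epoxidase, a flux-controlling and sterol-regulated enzyme, had 44.9 FPKM in L19M and 46.0 FPKM in WT, and Ebp, the sterol isomerase, had 29.8 FPKM in L19M and 30.3 FPKM in WT. The intervals of the last pair held 1 (0.915 to 1.04 for Sqle and 0.888 to 1.09 for Ebp). Ebp and Nsdhl are the X-linked members, and the 357 measured X-linked genes had a median log2 ratio of -0.03, beside 0.006 for 11479 autosomal genes.

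Among the sterol sensors, the Insig genes were lower in L19M and the genes of SREBP-2 and Scap were level. Insig2, the more abundant of the retention proteins' genes in both libraries, had 37.1 FPKM in L19M (35.5 to 38.8) and 49.5 FPKM in WT (47.3 to 51.8). Its ratio of 0.749 (0.702 to 0.799) was the lowest outside the enzymes. Insig1, whose transcription SREBP-2 drives, had 10.3 FPKM in L19M and 11.9 FPKM in WT, a ratio of 0.868 (0.759 to 0.992), just short of equality at the upper bound. Srebf2, the gene of SREBP-2, had 23.3 FPKM in L19M and 24.0 FPKM in WT, a ratio of 0.969 (0.905 to 1.04). Scap had 14.7 FPKM in L19M and 14.3 FPKM in WT, a ratio of 1.03 (0.938 to 1.12). RNA of these genes does not measure how much SREBP-2 was cleaved.

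All 5 transport genes had log2 ratios above 0, as did 50.8% of all measured genes, with a median of 0.12, but the counting intervals of 3 of them (Npc1, Abca1 and Abcg1) held 1. Npc2, the soluble lysosomal protein that hands cholesterol to Npc1, had 42.7 FPKM in L19M (41.1 to 44.4) and 34.2 FPKM in WT (32.5 to 36.0). Its ratio was 1.25 (1.17 to 1.33), and 9.59% of measured genes had a larger log2 ratio. Npc1, the membrane protein that takes the cholesterol out of the lysosome, had 4.82 FPKM in L19M and 4.60 FPKM in WT, a ratio of 1.05 (0.907 to 1.21). Its transcript overlaps 276 bases of a gene on the other strand, 3110002H16Rik. Stard4, a cytosolic sterol carrier switched on by SREBP-2, had 29.0 FPKM in L19M and 26.6 FPKM in WT, a ratio of 1.09 (1.01 to 1.18).

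The exporters Abca1 and Abcg1, which load cholesterol onto lipoproteins and are raised by LXR, were the least abundant members. Abca1 had 1.61 FPKM in L19M and 1.44 FPKM in WT, a ratio of 1.12 (0.938 to 1.35), and Abcg1 had 1.92 FPKM in L19M and 1.66 FPKM in WT, a ratio of 1.16 (0.925 to 1.45). From 132 to 312 estimated fragments per library, no difference was detectable for either at this depth.

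**Figure D3:**
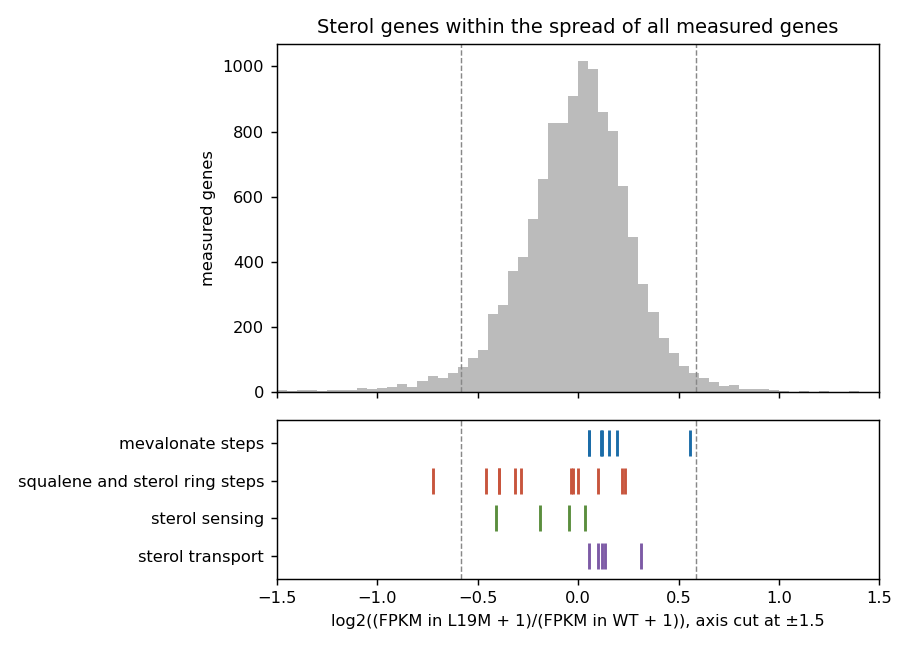
Histogram of the log2 ratio (L19M over WT, pseudocount 1 FPKM) of measured genes in bins of 0.05, above tick marks for the 28 genes by role. The axis is cut at 1.5 on either side of 0, so 167 of the 11841 measured genes are not drawn. Dashed lines are 1.5-fold. The sterol genes lie between -0.72 for Msmo1, with 2.85% of measured genes below it, and 0.56 for Mvd, with 2.24% above it.

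Genes around the pathway were read from lists written with earlier results known. Of 25 measured other sterol genes (receptors, esterification, proteases of SREBP, sterol carriers and oxysterol enzymes) 0 passed 2-fold on the log2 scale with its pseudocount of 1 FPKM, 10 had a log2 ratio above 0 and 15 below, and the median was -0.07. The 3 furthest from 0 were Soat1, which esterifies cholesterol (1.46 FPKM in L19M, 3.16 FPKM in WT, log2 ratio -0.76), Gramd1c, of a family of sterol carriers (32.2 FPKM in L19M, 48.7 FPKM in WT, -0.58), and Scarb1, the receptor for high-density lipoprotein (13.0 FPKM in L19M, 9.29 FPKM in WT, 0.45). Without the pseudocount the FPKM ratio of Soat1 was 0.460 (0.366 to 0.577), beyond 2-fold, and Soat1 is also in the sebocyte list, whose median log2 ratio was -0.76. Of 11 genes of the isoprenoid branch, 10 were below 0, where 49.2% of all measured genes were, and 1 above. The median was -0.13, with 0 at 2-fold. Counting intervals of the FPKM ratio held 1 for 7 and lay below 1 for 4 of these 11 genes, where 24.4% of all measured genes lay below 1. Zmpste24, the protease of prenylated lamin A, led them at 6.40 FPKM in L19M and 10.6 FPKM in WT, a ratio of 0.606 (0.529 to 0.694). Pdss2, of ubiquinone side chain synthesis (1.13 FPKM in L19M, 1.98 FPKM in WT), and Dhdds, of dolichol synthesis (7.63 FPKM in L19M, 10.1 FPKM in WT), came next. The Pdss2 ratio of 0.571 (0.373 to 0.894) rests on only 40 estimated fragments in L19M and 51 in WT. The branch's median lay below 0 and that of the mevalonate genes above 0. Both were inside the quartiles of all measured genes, -0.17 and 0.16.

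Fatty acid genes under SREBP-1 had a median log2 ratio of -0.19 over 13 measured genes, with 5 above 0 and 8 below, and 1 at least 2-fold lower. That gene was Scd1, a desaturase also in the sebocyte list, at 13.2 FPKM in L19M and 36.1 FPKM in WT, a ratio of 0.366 (0.340 to 0.392). Elovl6, an elongase, had 18.4 FPKM in L19M and 30.9 FPKM in WT, a ratio of 0.597 (0.563 to 0.633). Fads2, a desaturase, had 0.762 FPKM in L19M and 1.47 FPKM in WT, from only 19 and 27 estimated fragments. Its ratio of 0.520 had a wide interval (0.273 to 0.971). Over the 11 measured genes outside the sebocyte list the median was also -0.19, with 0 at 2-fold. That lies just below the lower quartile of all measured genes, -0.17. Counting intervals of the FPKM ratio lay below 1 for 7 of these 11 genes, where 24.4% of all measured genes did. They lay above 1 for 1, where 23.1% did, and held 1 for 3. Targets of LXR, which include Abca1 and Abcg1, had a median of 0.01 over 7 measured genes, with 0 at 2-fold. Smpdl3a, a secreted phosphodiesterase (33.0 FPKM in L19M, 55.9 FPKM in WT), lay below 0. So did Lpcat3, a phospholipid acyltransferase (8.81 FPKM in L19M, 12.9 FPKM in WT). Both exporters lay above 0, with intervals of the FPKM ratio that held 1. Of these 7 genes, the interval lay below 1 for 3 (Smpdl3a, Lpcat3 and Srebf1), where 24.4% of all measured genes did. It lay above 1 for 0, where 23.1% did, and held 1 for 4. Srebf1, the gene of SREBP-1, had 9.26 FPKM in L19M and 10.9 FPKM in WT.

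Markers of other cell types and states differed between the libraries as well. Summed FPKM of 17 sebocyte markers was 615 in L19M and 1004 in WT, with 7 of 15 measured genes at least 2-fold lower and a median log2 ratio of -0.76. Proliferation genes summed to 367 FPKM in L19M and 470.2 FPKM in WT, with 0 of 15 at 2-fold and a median of -0.44. Adipocyte markers summed to 558 FPKM in L19M and 669 FPKM in WT. Of 13 measured adipocyte markers 5 were at least 2-fold lower, and the median was -0.36. Macrophage markers summed to 49.1 FPKM in L19M and 38.8 FPKM in WT, with 0 of 7 at 2-fold and a median of 0.13. Keratinocyte markers summed to 47498 FPKM in L19M and 54186 FPKM in WT, with 0 of 11 at 2-fold and a median of -0.09. Of these 11 genes 4 had a log2 ratio above 0 and 7 below, from -0.42 for Krtdap to 0.56 for Trp63. The part of these cell types and states in the sterol gene values was not tested.

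**Figure D4:**
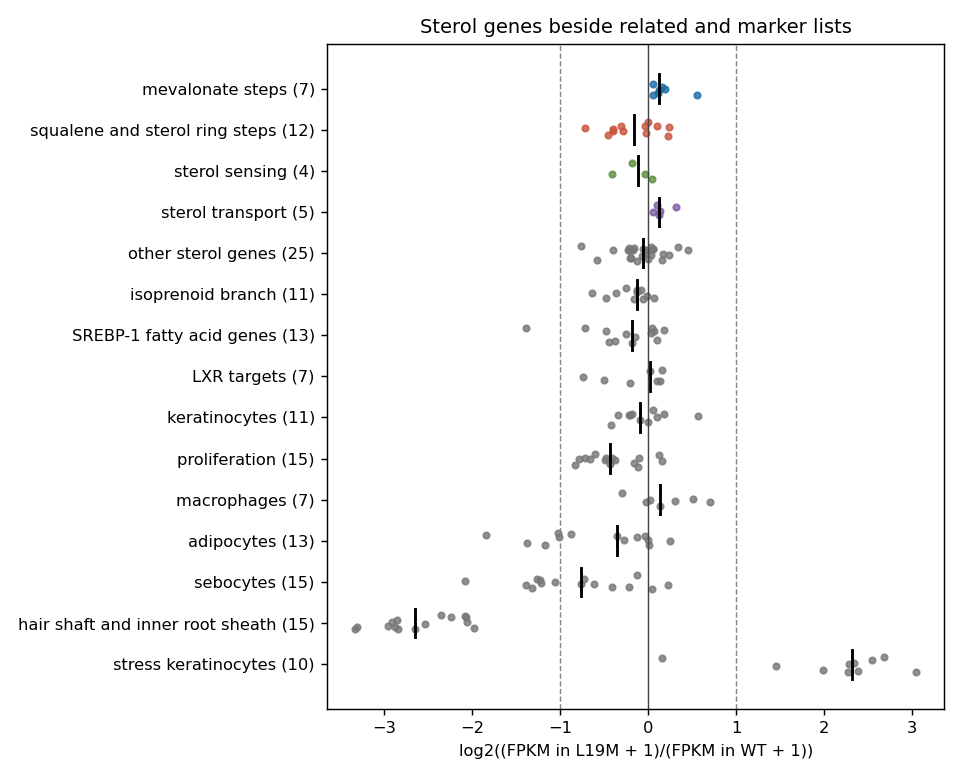
Log2 ratio (L19M over WT, pseudocount 1 FPKM) of each measured gene in the 4 role groups and in related and marker lists, with the number measured in brackets; black bars are medians, dashed lines 2-fold. Role groups have medians of 0.12, -0.16, -0.12 and 0.12 from the top, while the hair list has -2.65 and the stress list 2.31.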

How the data were processed

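Poly(A)-selected RNA of neonatal epidermis was sequenced from 1 L19M and 1 WT library, made with a directional kit, per the labels' protocols. The authors deposited FPKM per gene (headed raw data), log2 values after quantile normalization and a ratio (fold) of L19M over WT computed from them, per the file headers and information sheet. Cufflinks, edgeR and R 3.5.1 appear without a role in the list of tools, per the submitters' processing notes. No source used here names the aligner. The sheet gives mm10 while the notes list GRCm39; 95.5% of 21982 symbols, and all 28 members, started within 5000 bases of the RefSeq start on GRCm38, and mm10 coordinates are printed, with the first base as 1.

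The planned rule for normalized values applied. The log2 ratio used a pseudocount of 1 FPKM, which understates differences of low genes, and a gene was measured at a mean of at least 1 FPKM. Fragments were estimated from FPKM steps (84.1% of low values in L19M and 85.0% in WT within 0.1 of a whole number) and gave exact Poisson and Clopper-Pearson intervals, in Python 3.11.15 with scipy 1.17.1. PCR copies are not independent molecules, so intervals cover counting error only. The procedure was tested on simulated libraries. All members are named, and of each related list the 3 measured genes with the largest absolute log2 ratio. The members, role groups, lists and thresholds were chosen with earlier results of these data known. The protein comparison that had been planned was not made. Transcript lengths came from the deposited table.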

Additional observations from a re-analysis of the deposited data

How the results depend on the processing

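The counts of members past 2-fold and 1.5-fold and the median log2 ratios were recomputed with pseudocounts of 0.1 and 5 FPKM, with no minimum level, with a minimum of 10 FPKM, from the authors' normalized log2 values, with the median of measured genes set to 0, and with the library total taken without the 20 most abundant genes. Under each of these the counts were as given, Msmo1 was the lowest member (-0.74 to -0.69) and Mvd the highest (0.50 to 0.57), and the median of the members lay between 0.02 and 0.06. The sign of Hsd17b7, at equality, changed under the last pair of settings. Leaving out the most abundant member moved the ratio of summed FPKM to 0.911 for the squalene and ring steps (without Msmo1), 0.962 for the sensors (without Insig2) and 1.09 for transport (without Npc2), so these single genes carry much of those sums, and to 1.11 for the mevalonate steps (without Fdps). No paired analysis was possible because each genotype has 1 library, and no library could be left out. Depth limits Abca1, Abcg1 and Tm7sf2 most, and no setting addresses the differing sex-linked RNA or the spread between animals.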
